A study of Arabidopsis thaliana with 9 samples.

Results

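NAC014 (AT1G33060, chromosome 1), a NAC transcription factor gene, kept to a narrow range of levels on all 9 arrays and differed between no pair of genotypes beyond the spread between arrays. Of 16548 genes with a single-gene probe set, it was the 1 whose symbol began with MYB, NAC or ERF followed by a number. The rule took probe sets annotated with exactly 1 gene, allowed a leading AT or A in the symbol, and kept the probe set with the highest mean over 9 arrays for each gene. It found 0 MYB genes, 1 NAC gene and 0 ERF genes, and it gave the same gene whether the symbol came from the platform annotation or from RefSeq. In the platform annotation 14896 of the 16722 single-gene probe sets are named only by a locus code, which the rule cannot match. A family gene named only in that way could be found through its RefSeq symbol alone. Among the 759 probe sets annotated with several genes, 0 carried such a symbol in the platform annotation. These probe sets were not matched to RefSeq symbols. RefSeq lists 226 Arabidopsis genes with such symbols, 121 MYB, 81 NAC and 24 ERF. Those other than NAC014 had no single-gene probe set in the annotation used here and were not analysed here. The 3 families could therefore not be compared with each other, and the values below describe NAC014, followed by related genes that carry other symbols.

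Affymetrix arrays gave the transcript levels of Arabidopsis thaliana seedlings of the Col-0 ecotype, with 3 arrays for each of 3 genotypes: wild type, ssrp1-2 and spt16-1. The RNA of an array was extracted from the shoots of several seedlings, pooled to 100 mg, that had grown for 10 days on 0.5x MS plates. The ssrp1-2 and spt16-1 alleles lie in the genes for both subunits of FACT, a complex that handles histones while RNA polymerase II moves through nucleosomes, and each mutant is represented by a single allele. Replicates are labelled as biological, but nothing says that they were sown or plated separately, so p-values here reflect only how much these pools vary.

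MYB, NAC and ERF proteins form 3 of the large transcription factor families of plants. MYB proteins bind DNA through repeats of a helix-turn-helix fold and are known for control of phenylpropanoid metabolism, cell shape and stress responses. NAC proteins share a DNA-binding domain at the amino terminus and act in organ boundaries, wood formation, senescence and stress, while ERF proteins carry an AP2 domain and are known for ethylene, wound and dehydration responses. NAC014, also called NTL2, belongs to the NAC proteins with a membrane anchor near the carboxyl terminus. Such proteins are held at a membrane and act in the nucleus after release, so their transcript level is only 1 of the steps that set their activity. Protein and release were not measured.

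NAC014 was expressed well inside the range of the arrays. Its mean over 9 arrays was 6.18 on the log2 scale, at percentile 66.2 of the means of all 28501 probe sets, whose median was 4.96. In wild type the 3 arrays read 6.18, 6.32 and 6.19. In ssrp1-2 they read 6.17, 6.19 and 6.18. In spt16-1 they read 5.98, 6.18 and 6.19. The highest value belonged to wild-type replicate 2 and the lowest to spt16-1 replicate 1, and the other 7 arrays lay between 6.17 and 6.19. The groups overlapped in all 3 comparisons.

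**Figure D1:**
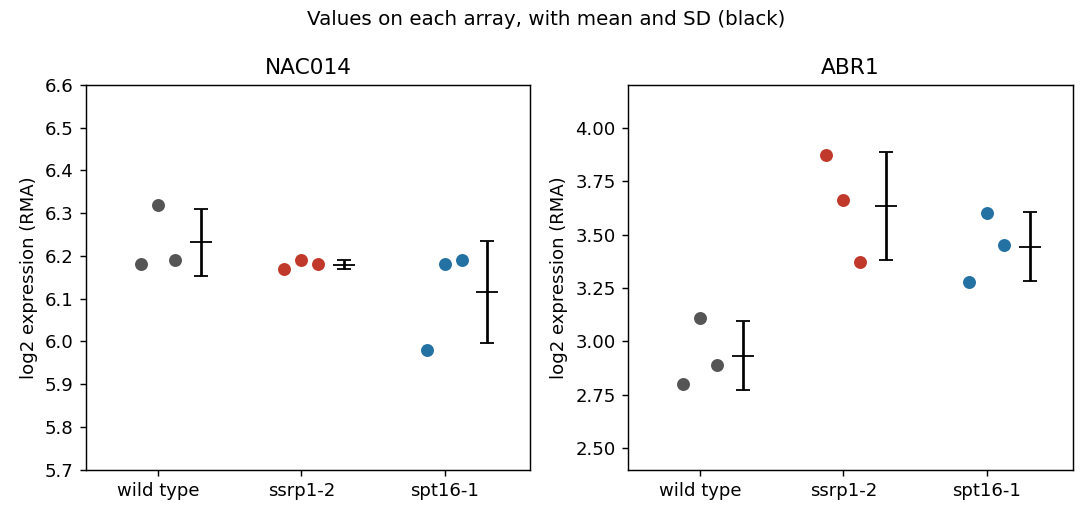
Log2 expression (RMA) on each array for NAC014 (left) and for the AP2/ERF gene ABR1 (right), by genotype. Coloured points are the 3 arrays of a genotype, and the black mark and bar beside them are the mean and SD. NAC014 overlaps between all genotypes, while the 3 ssrp1-2 and the 3 spt16-1 values of ABR1 lie above those of wild type; the vertical axes do not start at 0 and differ between the panels.

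The genotype means of NAC014 were ordered wild type, ssrp1-2, spt16-1. They were 6.23 ± 0.08 in wild type, 6.18 ± 0.01 in ssrp1-2 and 6.12 ± 0.12 in spt16-1 (SD, n = 3 each). Neighbours in this order did not differ beyond their spread. The ssrp1-2 arrays lay closest together and the spt16-1 arrays farthest apart, the latter through replicate 1.

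The first comparison set ssrp1-2 against wild type. NAC014 had a log2 difference of -0.05 (SE 0.08, 95% interval -0.23 to 0.13) and an adjusted p of 0.818 by limma. On the linear scale that interval runs from 0.852 to 1.09 times the wild-type level. By the same test 735 of all probe sets passed, 2.58% of those tested, and 0 of 1 member did. Ranked by absolute difference, NAC014 stood at percentile 26.1 of all probe sets. An exact two-sided permutation test of the 3 arrays against 3 gave p = 0.3 where 0.1 is the smallest value it can give.

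In spt16-1 the NAC014 difference from wild type was -0.12 (SE 0.08, 95% interval -0.30 to 0.06), with an adjusted p of 0.618 by limma. The linear interval runs from 0.815 to 1.05 times wild type. Of all probe sets 576 passed in this comparison, or 2.02%, and again 0 of 1 member. The absolute difference stood at percentile 54.2, close to the middle of all probe sets, and the exact permutation test gave p = 0.3. Without spt16-1 replicate 1 the difference was -0.05. Both mutants were set against the same 3 wild-type arrays, so the shared sign of their differences is not a separate observation.

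Set directly against spt16-1, ssrp1-2 had a NAC014 log2 difference of 0.06 (ssrp1-2 minus spt16-1, SE 0.08, 95% interval -0.12 to 0.24; adjusted p = 0.803 by limma). Of all probe sets 238 passed, 0.835% of those tested, and 0 of 1 member. The exact permutation test gave p = 0.7. The sign of this difference turned without spt16-1 replicate 1, where it was -0.0048. The 3 intervals together leave room for NAC014 differences of up to about 0.30 on the log2 scale and do not show that the genotypes have equal levels.

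**Figure D2:**
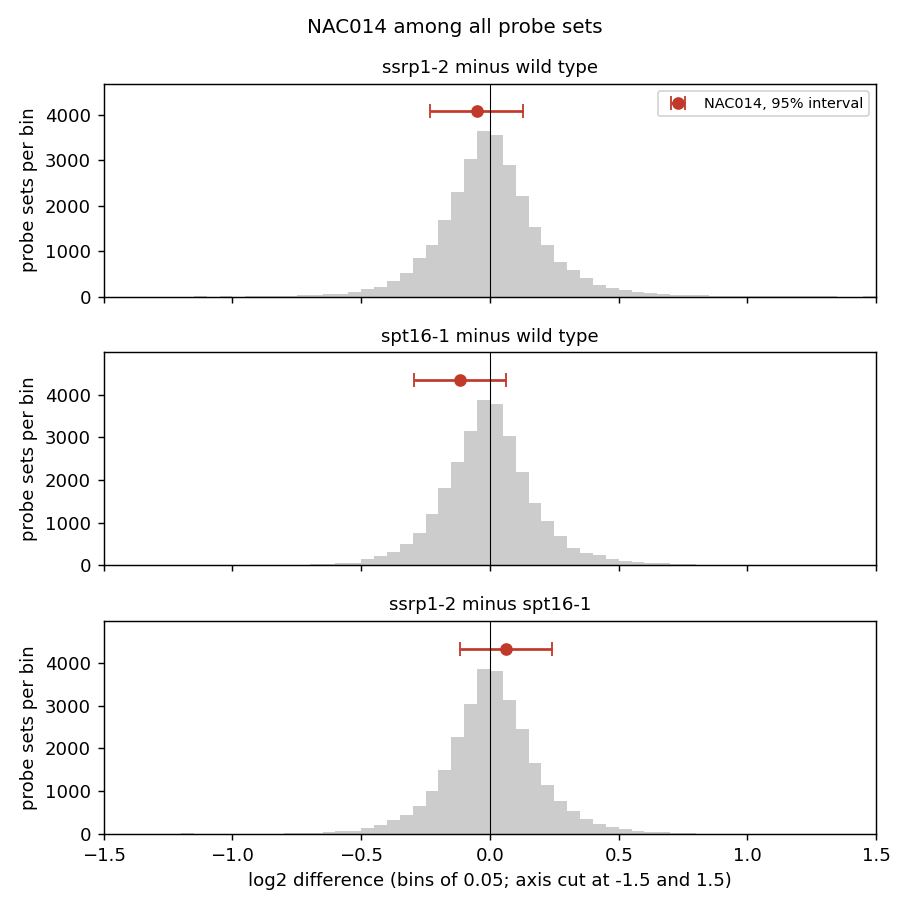
NAC014 beside all 28501 probe sets in the 3 comparisons; grey bars count probe sets by log2 difference, and the red point and bar are the NAC014 difference with its 95% interval, drawn above the bars at an arbitrary height. Each NAC014 interval includes 0 and lies between the 5th and 95th percentiles of its distribution, which are -0.32 and 0.36 in ssrp1-2 minus wild type. Each interval also reaches beyond the middle 50%, which spans -0.11 to 0.11 in ssrp1-2 minus wild type.

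The spread of NAC014 between arrays of 1 genotype was small. Its residual SD was 0.0826, at percentile 19.4 of all probe sets, where the median was 0.141. Wild-type replicate 1 and ssrp1-2 replicate 3 held exactly the same deposited value for NAC014, 6.18175 on the log2 scale. These arrays belong to different genotypes, and within a genotype NAC014 had no repeated value. Repeats on at least 2 arrays, within or between genotypes, occurred in 59.3% of all probe sets.

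Little could be measured around NAC014 on the chromosome. Of its 10 nearest protein-coding neighbours in RefSeq order, 5 on each side, 5 had a single-gene probe set, all on the side toward AT1G33102. Their log2 differences ran from -0.11 to 0.23 in ssrp1-2 and from -0.13 to 0.05 in spt16-1, both against wild type, and 0 of 5 passed in either. Of these 5, 2 had a mean over 9 arrays within the lowest 25% of probe sets (below 3.13 on the log2 scale). The immediate neighbour on the other side, AT1G33055, had no single-gene probe set in the annotation used here. The neighbours were chosen after the values of NAC014 were seen.

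Listed genes were matched by symbol, so a listed gene annotated under another symbol was not counted as measured. Of the 18 listed membrane-anchored NAC genes NAC014 was the 1 matched. The other 5 lists of NAC roles had 0 matched genes, as did all 9 lists of MYB roles and all 4 of ERF roles. These counts of 0 do not show that no gene of these roles was measured under another symbol. A list of 102 symbols that members of these families carry in place of a family number had 9 measured genes, all of the AP2/ERF superfamily to which ERF genes belong. They were ABR1, DREB2C, HRD, LEP, ORA47, PUCHI, SHN2, SHN3 and TINY2. In ssrp1-2 against wild type 1 of the 9 rose and 0 fell, where 1.74% and 0.839% of all probe sets did, with a median log2 difference of -0.03 beside 0.00 over all probe sets; 2 had an unadjusted p under 0.05. The second was TINY2, with a log2 difference of -0.37 (adjusted p = 0.188 by limma), where all ssrp1-2 arrays lay below all wild-type arrays, as in 8.18% of all probe sets. In spt16-1 0 of 9 passed by limma (2 at an unadjusted p under 0.05, ABR1 and DREB2C), with a median of -0.03 beside -0.01. Between the mutants 0 of 9 passed (1 at an unadjusted p under 0.05, DREB2C), with a median of 0.02 beside 0.01. The share of all probe sets at an unadjusted p under 0.05 was not counted. The counts at that threshold therefore do not show that these genes differ more often than others. DREB2C differed by 0.40 in spt16-1 against wild type (adjusted p = 0.283 by limma). In ssrp1-2 minus spt16-1 it differed by -0.43 (adjusted p = 0.279 by limma). Its arrays overlapped in both comparisons, and its mean over 9 arrays was 2.71. Of the 9, 4 lay below 3.13 in the mean over 9 arrays, within the lowest 25% of probe sets, where a missing call does not show equal levels.

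The gene that rose was ABR1 (AT5G64750), which encodes an AP2-domain repressor of abscisic acid responses. In wild type its arrays read 2.80, 3.11 and 2.89, in ssrp1-2 3.87, 3.66 and 3.37, and in spt16-1 3.28, 3.60 and 3.45. Every mutant array lay above every wild-type array, as in 4.11% of all probe sets, and the mutants overlapped. The ssrp1-2 difference from wild type was 0.70 (SE 0.14, adjusted p = 0.0419 by limma). Leaving out any array of the comparison other than ssrp1-2 replicate 3 ended the call: the adjusted p was 0.132, 0.0612 and 0.136 when wild-type replicate 1, 2 or 3 was dropped, and 0.107 and 0.114 when ssrp1-2 replicate 1 or 2 was. It was 0.0705 with a replicate block. In spt16-1 the difference was 0.51 (adjusted p = 0.149), and between the mutants it was 0.19 (adjusted p = 0.660). The wild-type mean of 2.93 lies below 3.13, the level under which 25% of probe sets have their mean over 9 arrays, and was not tested against background. The size of the ABR1 differences from wild type is therefore uncertain, on the log2 scale as well as a fold.

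**Figure D3:**
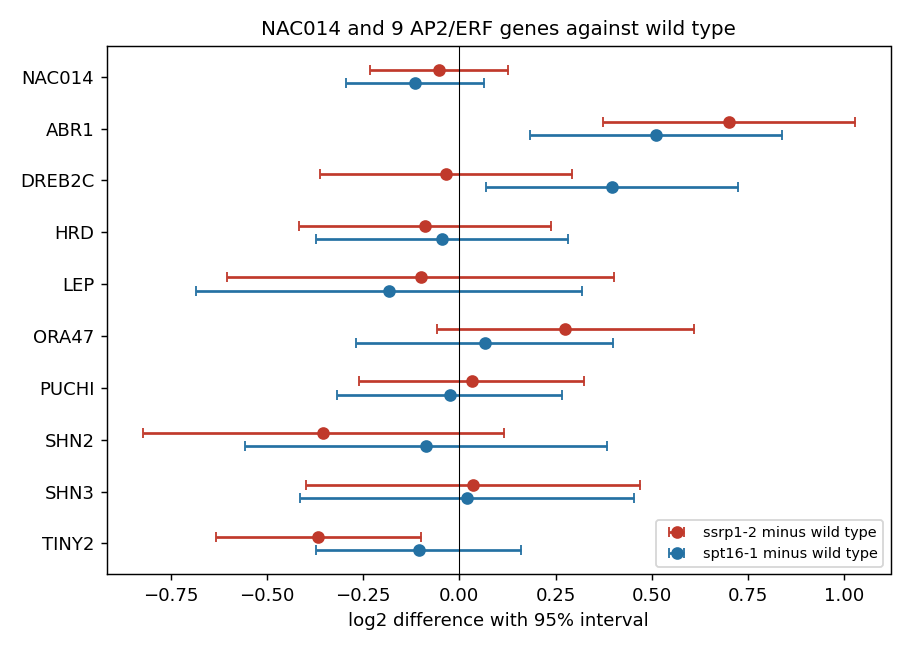
Log2 differences from wild type in ssrp1-2 (red) and spt16-1 (blue) for NAC014 and the 9 measured AP2/ERF genes; points are limma estimates and bars their 95% intervals, unadjusted for the number of genes. NAC014 has the narrowest intervals of the 10 genes, and ABR1 in ssrp1-2 is the 1 difference shown that passed after adjustment over all probe sets.

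Of genes around these factors, few were measured and 0 passed. Ethylene synthesis and signalling upstream of ERF factors had 2 of 28 listed genes measured, EIN3 and RTE1, with differences between -0.16 and 0.07 from wild type over both mutants. EIN3, the transcription factor through which ethylene activates ERF genes, differed from wild type by 0.07 in ssrp1-2 and 0.04 in spt16-1. The 4 measured plant defensin genes, known as ERF targets, all lay within the lowest 25% of probe sets, so their missing calls do not show equal levels. Their differences from wild type ran from -0.33 to 0.14 in ssrp1-2 and from -0.10 to 0.25 in spt16-1. Of 13 listed partners of MYB proteins 3 were measured (TRY, ATMYC1 and TCL1), and 0 passed in any comparison. TRY, a small MYB-like protein that inhibits trichome formation, read 5.57, 5.14 and 5.17 in wild type, 5.18, 4.40 and 4.94 in ssrp1-2 and 4.45, 4.49 and 4.70 in spt16-1. Its log2 differences from wild type were -0.46 in ssrp1-2 (adjusted p = 0.334 by limma) and -0.75 in spt16-1 (adjusted p = 0.117). All spt16-1 arrays of TRY lay below all wild-type arrays, as in 8.36% of all probe sets, and the ssrp1-2 arrays overlapped with both.

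A pair of genes with MYB in a name but outside the rule and the lists was picked from the annotation. MYBC1, a factor with a single MYB-like domain, had a log2 difference of -0.28 in spt16-1 (adjusted p = 0.151 by limma). AT5G47390, also called MYBH or KUA1, an activator of cell expansion in leaves, had -0.12 (adjusted p = 0.583). The spt16-1 arrays of both genes lay below all wild-type and all ssrp1-2 arrays, as did those of 2.54% of all probe sets. In ssrp1-2 the differences from wild type were -0.06 and 0.03. The same search also took genes with a MYB, NAC or ERF number only as a RefSeq synonym, of which there was 1. DREB2C, which is on the list of other symbols, was picked in this way and not by a MYB name. It went the other way in spt16-1, with 0.40 (adjusted p = 0.283 by limma), and had -0.03 in ssrp1-2.

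Marker genes were few. RCA, rubisco activase of photosynthetic tissue, was the 1 of 14 leaf genes measured, with a mean over 9 arrays of 12.3, at percentile 99.5. Its differences from wild type were -0.08 in ssrp1-2 (adjusted p = 0.588 by limma) and -0.10 in spt16-1 (adjusted p = 0.563). All ssrp1-2 arrays of RCA lay below all wild-type arrays, as in 8.18% of all probe sets. The same held for spt16-1, as in 8.36%. The root marker PYK10, 1 of 2 measured of 11, had a mean of 11.1 in these shoots, at percentile 99.1. PYK10 differed from wild type by -0.38 in ssrp1-2 (adjusted p = 0.199 by limma) and 0.09 in spt16-1. In ssrp1-2 minus spt16-1 it differed by -0.47 (adjusted p = 0.163 by limma). All ssrp1-2 arrays of PYK10 lay below all wild-type arrays, as in 8.18% of all probe sets. The other measured root marker, EXPA7, had a mean of 3.38, at percentile 29.1, with differences of -0.10 in both mutants. The guard cell marker FMA was the 1 of 6 measured, and 0 of 6 flower genes were. FMA differed from wild type by -0.19 in ssrp1-2 (adjusted p = 0.425 by limma) and -0.12 in spt16-1 (adjusted p = 0.675). In pooled tissue fewer cells of a type and less RNA per cell cannot be told apart, and the part of these tissues in the level of NAC014 was not tested. SSRP1 and SPT16 had no named probe set in the annotation used here, so the mutated genes were not analysed here.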

How the data were processed

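The authors' deposited values are log2 expression values, which the submitters' processing notes credit to RMA and to version 1.3 of Affymetrix Expression Console, from 200 ng of total RNA for each array per the labels' protocols. RMA corrects background, normalizes arrays to a common distribution and summarises probes, so a difference in total RNA between genotypes would not show. No source used here names the genome build, and scanner files were not used here. Array medians lay between 4.95 and 4.98, and arrays correlated at r = 0.989 to 0.994 across probe sets. Arrays carry no counting depth, and their number limits the precision.

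Of 28501 probe sets, 16722 had 1 annotated gene, 759 had several, and the annotation used here names no gene for 11020. Names were matched to RefSeq (TAIR10.1) by gene ID; no coordinates or sequences are printed. The listed symbol LOV1 was dropped because the named locus is a disease-resistance gene of the same symbol.

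limma 3.58.1 in R 4.3.3 (lmFit, eBayes, two-sided) was fitted to all 9 arrays, with Benjamini-Hochberg adjustment over all probe sets and a threshold of 0.05. It was tested on simulated data. Named were the members, and genes of the lists that passed; others are named where a list had few measured genes. The members and lists were chosen with earlier results of these data known. Replicate numbers showed no pairing of the arrays over all probe sets. Deviations of same-numbered arrays correlated at -0.14 to 0.07 over 9 pairs, and those of differently numbered arrays at -0.11 to 0.09 over 18. A pairing limited to fewer genes would not show in these correlations.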

Additional observations from a re-analysis of the deposited data

How the results depend on the processing

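The count of members called was 0 in each of the 3 comparisons under all alternatives run: a replicate block, an intensity trend, leaving out the lowest 25% of probe sets, median centring, another quantile normalization, an unmoderated test, a fit of the 2 genotypes alone, a minimum change of 2-fold, and dropping the arrays singly. Averaging probe sets of a gene changes nothing here, since NAC014 has 1 probe set. Family medians were not run for MYB and ERF, which had 0 members, and for NAC they equal NAC014. Over 13 alternatives each, the log2 difference of NAC014 ran from -0.08 to -0.01 in ssrp1-2 and from -0.15 to -0.05 in spt16-1, both against wild type, with adjusted p-values by limma not below 0.740 and 0.521. Between the mutants it ran from -0.0048 to 0.10, and it changed sign only without spt16-1 replicate 1. With the replicate block the NAC014 adjusted p-values were 0.817, 0.622 and 0.800, and the block changed no call of NAC014. The ABR1 call in ssrp1-2 held in 5 of 13 alternatives (intensity trend, filter, both scalings and without ssrp1-2 replicate 3) and was lost in the others. ABR1 passed the filter through the mutants, since its wild-type mean of 2.93 lies below the limit of 3.13, so that alternative is no support for the call. The losses came with adjusted p up to 0.136; it was 0.124 in the unmoderated test and 0.104 in the fit of the 2 genotypes alone. Signal near background limits what can be said of genes in the lowest 25% of levels.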

Other observations

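Exact repeats of a value within a probe set were common in the deposited table. Of all probe sets, 16903 (59.3%) held the same value to the last deposited digit on at least 2 arrays, and 4903 (17.2%) on at least 4 arrays. TCL1, a regulator of trichome patterning, held 3.896369 on 6 of 9 arrays, and EIN3 and the AP2 genes ORA47 and HRD each repeated 1 value on 4 arrays. Probe sets with a value repeated on at least 4 arrays had a median residual SD of 0.115, against 0.152 in the 11598 probe sets whose arrays all differed, and a median level of 3.91 against 5.67. The former had 0 calls by limma in either mutant against wild type, and the latter 5.16% in ssrp1-2 and 4.08% in spt16-1. A value repeated on at least 4 of 9 arrays must occur in more than 1 genotype, which lowers the chance of a call by construction. How the repeats arose was not tested.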
